A study of Mus musculus with 8 samples.

Results

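Costimulatory and checkpoint molecules were followed through 10 genes in islets under T cell attack: Cd40, Cd80, Cd86, Cd274, Pdcd1lg2 and Cd200, carried by presenting or islet cells, and Pdcd1, Ctla4, Icos and Cd28, carried by T cells. They were taken as every probe set whose platform annotation names exactly 1 of these symbols, which gave 19 of the 45037 probe sets that are not array controls. Of these, 12 belong to the first 6 genes and 7 to the 4 receptors.

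The islets were cut by laser from pancreas sections of NOD.Scid mice. These have the background of the diabetes-prone NOD strain and a scid mutation that blocks mature T and B cells but not natural killer or myeloid cells. The untreated group had 1 array and no T cells. The diabetogenic group had 3 arrays, from days 3, 4 and 8 after transfer of CD4+ T cells carrying the BDC2.5 transgene, a receptor for a beta cell antigen. The protected group had 4 arrays, from days 3, 4, 5 and 8 after the same transfer, and those mice also received an antibody against interferon-gamma (IFN-γ) on days -1 and 2. RNA of 5 mice was pooled on every array, no group is labelled as having received a control antibody, and no pair of arrays shares both group and day. Diabetogenic islets of day 5 were not analysed here.

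A naive T cell needs a signal from its antigen receptor and a second signal from a presenting cell. CD80 and CD86 give that second signal through CD28, while CTLA-4 binds the same ligands and restrains the cell. ICOS sustains T cells that are already activated. CD40 receives help from T cells through CD40 ligand and licenses the presenting cell to raise its own ligands. PD-L1 (Cd274) and PD-L2 (Pdcd1lg2) bind PD-1 (Pdcd1) and dampen effector T cells, PD-L1 also on tissue cells such as islet cells exposed to IFN-γ, and blocking PD-1 or PD-L1 hastens diabetes in NOD mice. CD200 restrains myeloid cells through its receptor CD200R1.

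Values are linear intensities, with array medians between 3.14 and 3.96. The share of bright probe sets, those at 8 times their array's median or more, was 4.74% to 5.34% for untreated islets and day 3, 0.850% (diabetogenic) and 2.23% (protected) for day 4, 3.85% for day 5, and 2.00% and 3.09% for day 8 in the same order. Spiked hybridisation controls had a median of 1.48 to 2.29 on the untreated and day 3 arrays and of 551 to 1712 on the later ones. A difference of days 4 to 8 from untreated islets or from day 3 therefore cannot be told apart from that split. Both arms of a day lie on the same side of it. The beta cell transcript Ins2 stood between 3409 and 6359 on all 8 arrays, as islet tissue calls for. In a pooled tissue sample, fewer cells of a type and less RNA per cell cannot be told apart.

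The members were counted by role against the array median, which by definition has as many probe sets above it as below. Each gene was counted by its probe set of highest mean intensity over the 8 arrays, a choice that favours the 7 arrays of injected mice. On the ligand side 1 of 6 genes, Cd200, stood at or above it in untreated islets, against 3 to 6 of 6 on the injected arrays. Counted by probe set, as the median is, it was 1 of 12 in untreated islets and 6 to 9 of 12 on the injected arrays. On the receptor side it was 1 of 4 genes in untreated islets and 0 to 3 of 4 on the injected arrays. By probe set it was 1 of 7 and 0 to 4 of 7. No receptor probe set reached 8 times the median on any array, a level that only 0.850% to 5.34% of all probe sets reached. The highest value of the 7 receptor probe sets was 5.59 in untreated islets and 16.1 over all arrays. The panels of values by day show the ligand side spread over the whole range and the receptors close to the array median.

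**Figure D1:**
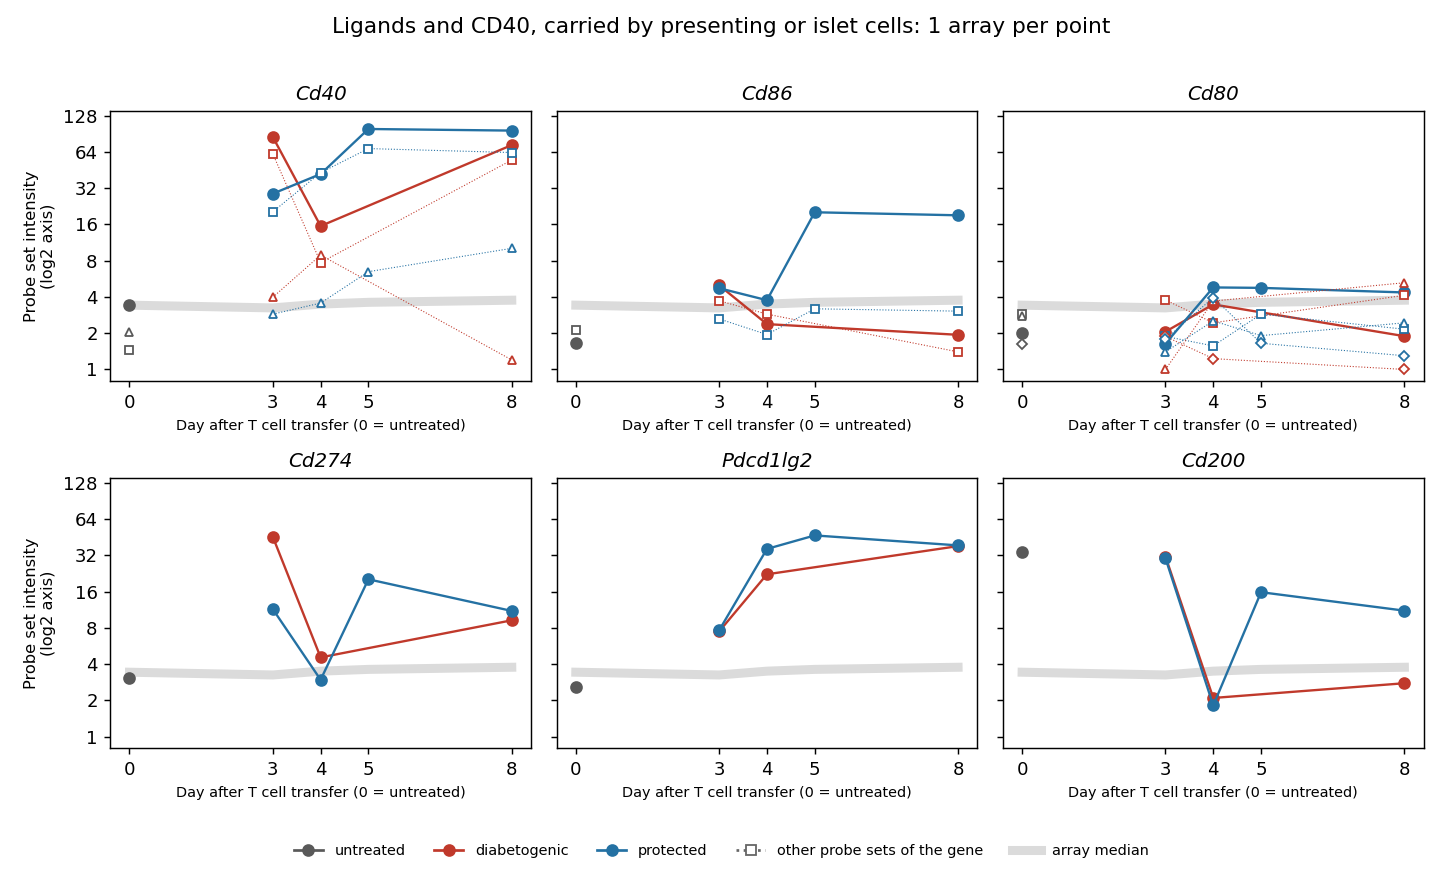
Probe set intensity (log2 axis) of the 6 ligand-side genes against day after T cell transfer, with 1 array per point; filled points joined by solid lines are the probe set used in the tests, open points joined by dotted lines the gene's other probe sets, and the grey band joins the mean of the array medians of each day. Cd40 stands above the band on every array of injected mice, Pdcd1lg2 reaches 22.3 to 46.8 from day 4 on, and Cd200 is below the band on 3 of the later arrays.

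Cd40, the receptor through which T cells activate presenting cells, was far brighter on every array of injected mice than in untreated islets, though not past the test. Its intensity was 3.41 in untreated islets, 85.3, 15.5 and 73.1 in the diabetogenic arm (days 3, 4 and 8) and 28.9, 42.0, 99.4 and 96.4 in the protected arm (days 3, 4, 5 and 8). Every injected array lay above the untreated one, and the 2 arms overlapped. As a rank within its own array, Cd40 stood at percentile 49.98 in untreated islets and between 95.4 and 99.1 in all injected ones. The log2 difference from untreated was 3.13 ± 1.24 (SE) for the diabetogenic arm and 3.45 ± 1.2 for the protected arm, or 8.77-fold and 10.9-fold. Neither passed (limma adjusted p = 0.894 and 1). All fold changes and log2 differences here are of log2(intensity + 2.155), which understates changes of dim genes.

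On day 3, where the untreated array lies on the same side of the spiked controls, Cd40 was 15.7-fold above untreated in diabetogenic and 5.57-fold in protected islets, with 1 array each and no test. Of all genes tested, 2.81% and 2.2% were at least 2-fold higher on those arrays, and 1.23% and 1.08% lower. A second probe set gave the same picture, at 1.45 in untreated islets, 61.7, 7.73 and 54.9 in the diabetogenic arm and 20.4, 43.1, 68.3 and 63.4 in the protected arm. The third was dim and did not follow them, at 2.04 in untreated islets, 3.98, 8.91 and 1.2 in the diabetogenic arm and 2.88, 3.56, 6.49 and 10.1 in the protected arm. The names of both bright probe sets carry the suffix by which the manufacturer marks probes that may match more than 1 transcript.

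Between the arms the sign of the Cd40 difference on day 4 depended on the scaling and the probe set. Cd40 was 2.82-fold higher in diabetogenic islets on day 3 (log2 difference 1.5) and 2.50-fold lower on day 4 (-1.32), with -0.39 on day 8. Over the 3 days the difference was -0.07 ± 0.60 (SE, 95% interval -1.29 to 1.15, adjusted p = 0.984). The sign turned when the day 4 pair was left out (0.55) and when the day 8 pair was left out (0.09), and without the day 3 pair it was -0.85. With quantile normalization and cyclic loess the 3-day value was 0.25 and 0.62, and the day 4 value -0.69 and 0.22. The dimmest probe set gave 0.95 on day 4. On that day the diabetogenic array had the smaller share of bright probe sets, 0.850% against 2.23%, and as a rank Cd40 stood there at percentile 97.2 against 98.5.

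Cd86, the B7 ligand that presenting cells carry at rest and raise when activated, was brightest in protected islets of the late days. Its intensity was 1.67 in untreated islets, 5, 2.38 and 1.94 in the diabetogenic arm (days 3, 4 and 8) and 4.73, 3.76, 20.2 and 19.1 in the protected arm (days 3, 4, 5 and 8). Values of days 5 and 8 under protection stood far above the other 6, which lay between 0.488 and 1.51 times their medians. On day 8 it was 5.18-fold lower in diabetogenic islets (log2 difference -2.37), percentile 0.506 of all tested genes, of which 13.9% were at least 2-fold lower that day and 9% higher. On days 3 and 4 the differences were 0.06 and -0.38. Over the 3 days the difference was -0.90 ± 0.39 (SE, 95% interval -1.69 to -0.11), with an unadjusted p of 0.0267 and a limma adjusted p of 0.506, so it did not pass. That SE and interval rest mostly on the spread of other genes of like level. The 3 day differences of Cd86 itself ran from 0.06 to -2.37. Without the day 8 pair it was -0.16, and without the day 3 or day 4 pair -1.38 and -1.16. A second probe set, below the filter, stood between 1.40 and 3.72 on all 8 arrays and showed no such step.

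Of 7 dendritic cell markers tested, 6 had a negative difference between the arms (median -0.23, beside -0.07 over all genes), none passed, and their summed intensity was 18.2 in untreated islets, 25.8 to 33.3 in the diabetogenic arm and 38.7 to 81.8 in the protected arm. Itgax, the CD11c integrin of dendritic cells, stood at 3.20 in untreated islets, 10.04, 1.16 and 4.32 in the diabetogenic arm and 19.2, 9.53, 41.7 and 30.2 in the protected arm. The highest protected sums were carried largely by Itgax, and on day 8 also by Cd209a (30.4). Between the arms Itgax was at -1.65, Cd209a at -0.81 and Batf3 at -0.76. Zbtb46, Ccr7 and Flt3 were at -0.23, -0.09 and -0.04, and Xcr1 was at 0.47. Macrophage and monocyte markers, 5 of 7 of them negative (median -0.48), summed to 32.3 in untreated islets, 52.8 to 261 in the diabetogenic arm and 78.6 to 224 in the protected arm. The sum of 261, on day 8, was carried mostly by Lyz2 (146) and Mpeg1 (79.2). Intensities end at 1, the value of Batf3 and Ccr7 in untreated islets. Their part in the Cd86 difference was not tested.

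Cd80, the B7 ligand that presenting cells gain on activation, was dim throughout. The probe set used stood at 2.02 in untreated islets, 2.06, 3.47 and 1.89 in the diabetogenic arm and 1.64, 4.80, 4.76 and 4.36 in the protected arm. The protected arrays of days 4, 5 and 8 were above their medians, the diabetogenic array of day 4 was at its median, and the other 4 were below. The other 3 probe sets ranged from 1 to 5.25 over all arrays, and their highest arrays differed. The difference between the arms was -0.28 ± 0.33 (SE, 95% interval -0.94 to 0.38, adjusted p = 0.813), and it was 0.16 with the mean of the probe sets.

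The ligands of PD-1 are neighbours on chromosome 19, with no other protein-coding gene between them in the RefSeq annotation of GRCm38.p6, yet their profiles differed. To let a reader compare the sequence just before each start, the 250 bases before the start in the RefSeq promoter table are given here, both from the plus strand, with capitals marking GAAA or its reverse complement TTTC, the core that interferon regulatory factors contact.
Cd274, chr19:29367188-29367437: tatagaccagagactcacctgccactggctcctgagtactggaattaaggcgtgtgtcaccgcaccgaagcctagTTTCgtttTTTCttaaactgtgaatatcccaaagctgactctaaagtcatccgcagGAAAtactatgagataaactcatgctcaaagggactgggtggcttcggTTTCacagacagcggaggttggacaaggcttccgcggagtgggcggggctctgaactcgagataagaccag
Pdcd1lg2, chr19:29410669-29410918: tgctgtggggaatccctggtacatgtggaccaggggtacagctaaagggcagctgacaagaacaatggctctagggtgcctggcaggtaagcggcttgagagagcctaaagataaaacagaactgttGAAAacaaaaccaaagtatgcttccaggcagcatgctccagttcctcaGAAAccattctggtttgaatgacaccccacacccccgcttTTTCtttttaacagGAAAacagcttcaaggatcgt
Each window holds 4 such cores on both strands together, against a median of 2 over the windows of all genes, of which 86.4% hold at least 1. Neither holds the paired core (GAAA, then NN, then GAAA), present in 2.98% of all 32851 windows, counted on both strands. The single core lies inside the paired one. The absence of the paired core concerns this window alone. Windows were in the table for 6 of the 10 genes, and those of Cd200, Cd80, Ctla4 and Pdcd1 did not hold it either. The single core was present 4 times in the windows of Cd200 and Ctla4 too, and 2 times in those of Cd80 and Pdcd1. A count of 4 is thus not particular to the PD-1 ligands.

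Cd274, which encodes PD-L1, was highest on the diabetogenic array of day 3. Its intensity was 3.09 in untreated islets, 45.5, 4.54 and 9.23 in the diabetogenic arm (days 3, 4 and 8) and 11.4, 2.96, 20.2 and 11.04 in the protected arm (days 3, 4, 5 and 8). The arms overlapped, and the protected array of day 4 was the only injected one below untreated. On day 3 it was 3.51-fold higher in the diabetogenic arm (a log2 difference of 1.81, at percentile 99.7 of all tested genes, of which 1.34% were at least 2-fold higher and 0.506% lower). Cd40 was the other of the 6 ligand-side genes past 2-fold that day. The Cd274 difference was 0.39 on day 4 and -0.21 on day 8. Over the 3 days it was 0.66 ± 0.40 (SE, 95% interval -0.16 to 1.49, adjusted p = 0.631), and 0.09 without the day 3 pair. Against untreated islets it was 1.55 ± 1.01 in the diabetogenic arm and 1.19 ± 0.98 in the protected arm (adjusted p = 0.894 and 1). Without the day 3 array the diabetogenic value was 0.74.

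Of the 8 genes of the IFN-γ response list, 7 had a positive difference between the arms and the same leading array. The exception, Ciita, was at -0.10 between the arms. It stood at 6.5 on the diabetogenic array of day 3 and highest, at 8.12, on the protected array of day 4. The summed intensity of the 8 genes was 45.6 in untreated islets, 922, 197 and 283 in the diabetogenic arm (days 3, 4 and 8) and 124, 75.6, 102 and 234 in the protected arm (days 3, 4, 5 and 8). Gbp6, an interferon-induced GTPase, was the 1 member that passed (2.17 ± 0.45, adjusted p = 0.0383). Their part in the Cd274 values was not tested.

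Pdcd1lg2, which encodes PD-L2, was alike in both arms on days 3 and 8. Its intensity was 2.58 in untreated islets, 7.46, 22.3 and 38.1 in the diabetogenic arm (days 3, 4 and 8) and 7.62, 36.1, 46.8 and 38.7 in the protected arm (days 3, 4, 5 and 8). Across all genes, 9.81% and 10.1% were at least 2-fold above untreated on day 4 in the diabetogenic and protected arms, and 9.76% on day 5. All injected arrays of Pdcd1lg2 lay above the untreated one, and those of days 4 to 8 above both of day 3. The step after day 3 falls on the split in spiked controls and cannot be told apart from it. As a rank Pdcd1lg2 stood at percentile 34.9 in untreated islets, 80.3 and 80.8 on day 3 and 97.7 to 98.7 on the later arrays. The difference from untreated was 2.16 ± 1.10 (SE) in the diabetogenic and 2.63 ± 1.07 in the protected arm (4.47-fold and 6.21-fold, adjusted p = 0.894 and 1). On day 3 both arms stood 2.03-fold and 2.06-fold above untreated. The difference between the arms was -0.02, -0.65 and -0.02 on days 3, 4 and 8, and -0.23 ± 0.44 over them (95% interval -1.13 to 0.67, adjusted p = 0.904). That sign turned with quantile normalization (0.20) and cyclic loess (0.30). Over the 8 arrays, which share the signal differences given above, Pearson's r of log2 values was 0.003 between Cd274 and Pdcd1lg2, 0.68 between Cd40 and Cd274, and 0.68 between Cd40 and Pdcd1lg2.

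Cd200, a membrane protein of neurons, endothelium and some lymphocytes, had its highest values on the untreated and day 3 arrays. Its intensity was 34.3 in untreated islets, 31.3, 2.09 and 2.77 in the diabetogenic arm (days 3, 4 and 8) and 30.3, 1.81, 15.8 and 11.1 in the protected arm (days 3, 4, 5 and 8). Both day 3 arrays were close to untreated and all later ones lower, with the day 4 arrays of both arms and the diabetogenic array of day 8 below their medians. This step also falls on the split in spiked controls and cannot be told apart from it. The log2 difference from untreated was -2.04 ± 1.17 (SE) in the diabetogenic arm and -1.46 ± 1.13 in the protected arm (adjusted p = 0.894 and 1). Without the day 3 array the diabetogenic value was -3.00 (adjusted p = 0.0995), and without the day 4 array the protected value was -0.88. On day 4, 26% and 20.4% of all tested genes were at least 2-fold below untreated in the diabetogenic and protected arms, on day 5 it was 10%, and on day 8 22.6% and 14.8%.

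Between the arms, Cd200 differed by 0.04, 0.10 and -1.43 on days 3, 4 and 8, and by -0.43 ± 0.38 over them (95% interval -1.21 to 0.35, adjusted p = 0.754). Without the day 8 pair it was 0.07. Of 4 endothelial markers tested, none passed between the arms, and their median difference of -0.11 lay near that of all genes, -0.07. Kdr, the VEGF receptor of endothelium, was at -1.22 ± 0.38 (adjusted p = 0.372), and Emcn, Cdh5 and Vwf were at -0.17, -0.05 and -0.02. Their summed intensity was 20.7 in untreated islets, 7.48 to 20.3 in the diabetogenic arm and 8.51 to 39.2 in the protected arm. Kdr stood at 12.03 in untreated islets, 11.7, 1 and 1 in the diabetogenic arm and 12.8, 4.84, 17.4 and 14.4 in the protected arm. Of 5 beta cell markers, all were negative between the arms and against untreated in the diabetogenic arm (median against untreated -3.05). In the protected arm 3 were negative and 2 positive against untreated (median -2.54). Their sums were 5186 in untreated islets, 3808 to 5465 in the diabetogenic and 4656 to 7288 in the protected arm. The sum is carried by Ins2, while Pdx1, the beta cell transcription factor, stood at 77.5 in untreated islets, 47.6, 3.01 and 1.33 in the diabetogenic arm and 42.9, 2.35, 11.6 and 10.3 in the protected arm. Acinar cell markers, of the exocrine tissue around islets, differed more between the arms. All 6 tested were negative with a median of -1.95, none passed (lowest adjusted p = 0.259), and their sum was 1033 in untreated islets, 1030, 83.2 and 119 in the diabetogenic arm and 1007, 1924, 394 and 594 in the protected arm. The arms thus stood close on day 3 and apart on days 4 and 8. The part of acinar tissue in this and the other differences between the arms was not tested. The part of endothelial and beta cells and of the smaller share of bright probe sets in the Cd200 values was not tested.

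**Figure D2:**
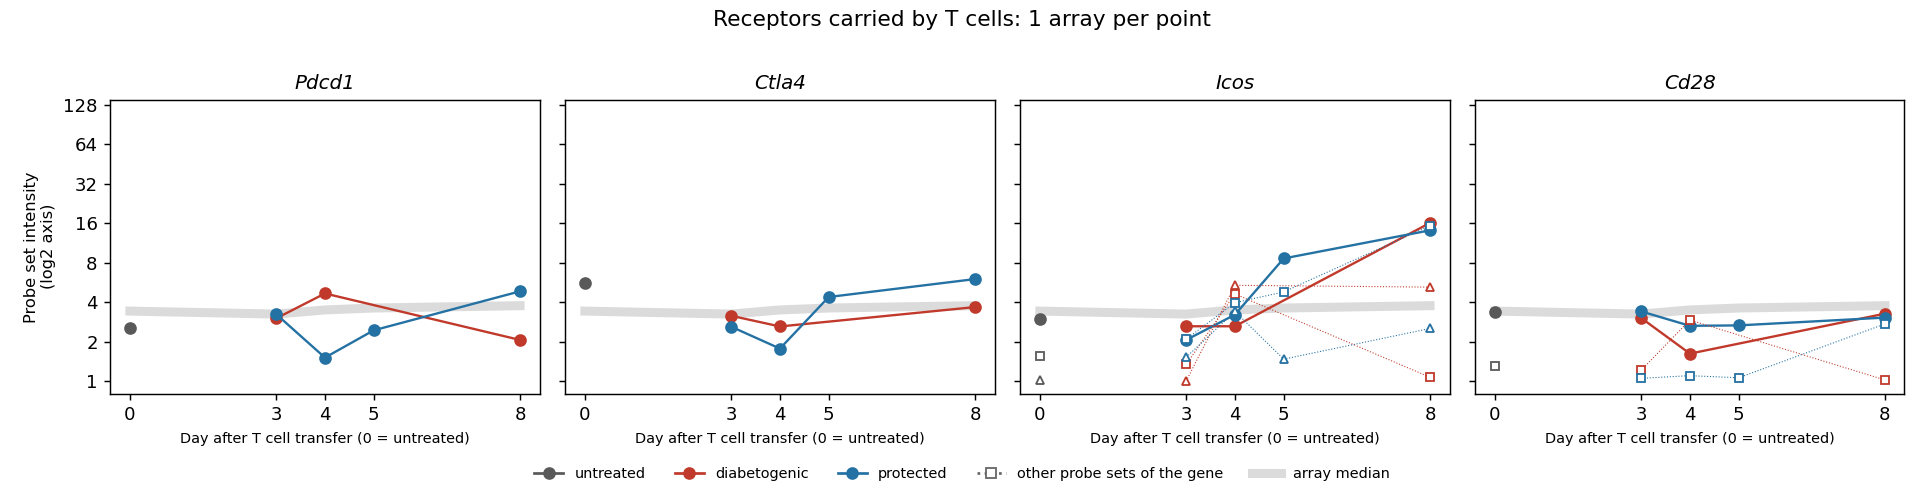
Probe set intensity (log2 axis) of the 4 receptors against day after T cell transfer, with 1 array per point, drawn as for the ligand side. Most points lie near the grey band of array medians, and Icos reaches 16.1 and 14.1 on the day 8 arrays.

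Among the receptors, Icos was the only one whose brightest probe set stood clearly above its array's median. It was 2.97 in untreated islets, 2.62, 2.62 and 16.1 in the diabetogenic arm (days 3, 4 and 8) and 2.06, 3.21, 8.62 and 14.1 in the protected arm (days 3, 4, 5 and 8). Up to day 4 all arrays lay below their medians, and the arrays of days 5 and 8 above. On day 8 it was 3.56-fold and 3.18-fold above untreated in the diabetogenic and protected arms, where 14.3% and 9.76% of genes were at least 2-fold higher. Its other probe sets did not bear out the diabetogenic value of day 8, with 1.07 and 5.21, against 15.3 and 2.52 on the protected array. The difference between the arms was 0.06 ± 0.34 (SE, 95% interval -0.64 to 0.76, adjusted p = 0.977) for the probe set used. It was -0.86 ± 0.39 (unadjusted p = 0.0387, adjusted p = 0.623) for the second and 0.29 ± 0.33 for the third in a limma fit of every probe set.

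Pdcd1, which encodes PD-1, the partner of the PD-L1 and PD-L2 genes above, stood at 2.56 in untreated islets, 3.01, 4.66 and 2.06 in the diabetogenic arm and 3.24, 1.51, 2.44 and 4.84 in the protected arm. It reached its array's median on 3 of 8 arrays, in no order of arm or day. The arms differed by 0.03 ± 0.34 (SE, 95% interval -0.67 to 0.73, adjusted p = 0.986), a sign that turned with median centring (-0.0124) and cyclic loess (-0.0834).

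Ctla4, the restraining receptor for CD80 and CD86, stood at 5.59 in untreated islets, 3.15, 2.61 and 3.67 in the diabetogenic arm and 2.60, 1.77, 4.38 and 6 in the protected arm. The untreated islets, which received no T cells, were above every injected array other than the protected one of day 8 and so give the level of the probe set without T cells. The arms differed by -0.02 ± 0.33 (SE, 95% interval -0.69 to 0.65, adjusted p = 0.993).

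Cd28, the receptor for the second signal, was at 3.39 in untreated islets, 3.03, 1.62 and 3.27 in the diabetogenic arm and 3.40, 2.64, 2.66 and 3.05 in the protected arm. Its other probe set stood between 1.02 and 2.92. The 2 probe sets reached the median on 1 and 0 of the 8 arrays and were not tested, since a gene had to reach it on 2.

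T cell markers differed in level. Of 7 tested, the summed intensity was 19.4 in untreated islets, 29.8 to 61.4 in the diabetogenic arm and 35.5 to 87.9 in the protected arm, with 5 of 7 below the array median in untreated islets and 0 to 4 of 7 on the injected arrays. Thy1 stood at 4.77 in untreated islets, 14.1, 4.59 and 30.1 in the diabetogenic arm and 15.4, 10.7, 26.9 and 40.1 in the protected arm. The sum of 87.9, on the protected array of day 8, was carried largely by Thy1 (40.1) and Cd3e (19.02). That of 61.4, on the diabetogenic array of day 8, was carried largely by Thy1 (30.1). Cd3d, Cd4, Cd2 and Cd5 stood between 1.27 and 6.79 on all 8 arrays. Between the arms, 6 of 7 were negative (median -0.09) and none passed. The exception, Cd247, was at 0.51. Cd3e, a chain of the T cell receptor complex, had the largest difference, -1.30 ± 0.39 (unadjusted p = 0.00194, adjusted p = 0.344). It stood at 1.96 in untreated islets, 3.19, 3.44 and 9.71 in the diabetogenic arm and 7.56, 23.7, 2.76 and 19.02 in the protected arm. None passed against untreated islets in either arm. The levels of the receptors relative to the number of T cells were not tested. B cell markers, of 4 tested, summed to 15.1 in untreated islets and to 13.3 to 24.5 on the others. Of 3 regulatory T cell markers, Foxp3 did not pass the filter.

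**Figure D3:**
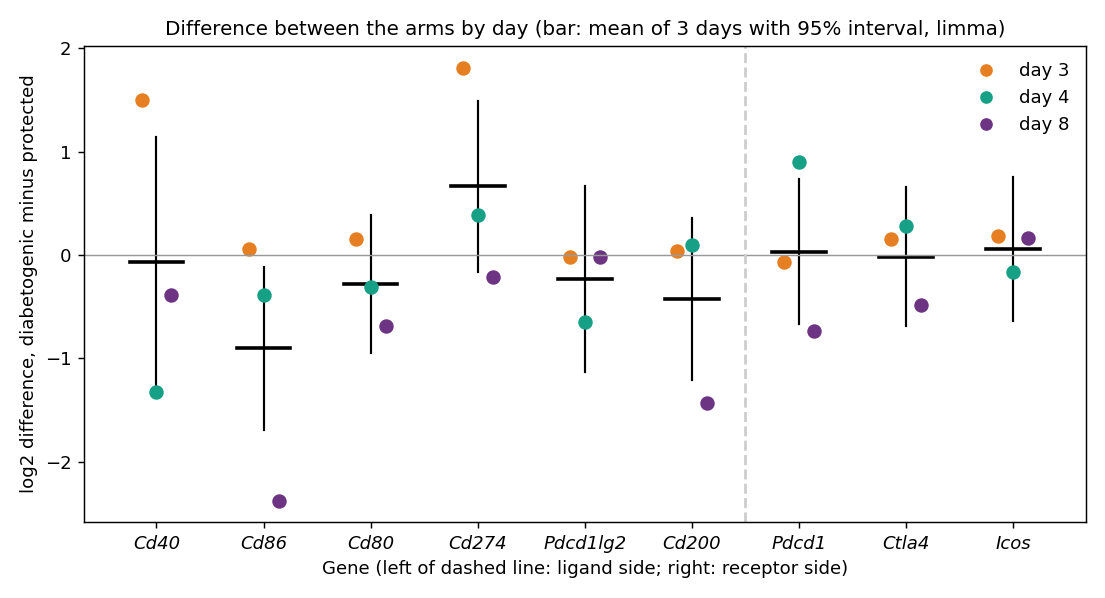
Log2 difference (diabetogenic minus protected) of the 9 tested genes on days 3, 4 and 8 (coloured points, 1 array against 1) with the mean over the 3 days (horizontal bar) and its 95% interval from limma (vertical line). Cd274 and Cd40 lead on day 3 at 1.81 and 1.5, and Cd86 is lowest on day 8 at -2.37.

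Set side by side, 0 of the 9 tested genes passed between the arms (limma, adjusted p under 0.05), against 0.11% of all 16396 tested genes (0.0183% higher and 0.0915% lower in diabetogenic islets), and 1 of the 9, Cd86, had an unadjusted p under 0.05, against 1471 of all genes. The median difference was -0.26 for the 6 ligand-side genes and 0.03 for the 3 receptors, beside -0.07 over all genes. By day, the ligand-side median was 0.10, -0.34 and -0.54 on days 3, 4 and 8, with 2 genes at least 2-fold higher on day 3 (1.34% of all genes), 1 lower on day 4 (14.1% of all genes, and 5.78% higher) and 2 lower on day 8 (13.9% of all genes). The day 8 count includes Cd200, which was under 2-fold with 4 times the pseudocount (-0.79) and with cyclic loess (-0.93). It also includes Cd86, at -0.55 by its probe set below the filter. On day 3 Cd40 was at 0.29 by its dimmest probe set, while Cd274 was at 1.43 or more under every alternative run. The day 4 gene is Cd40, whose sign turned with cyclic loess and by that dimmest probe set. No receptor differed by 2-fold between the arms on any day, by the probe set used.

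**Figure D4:**
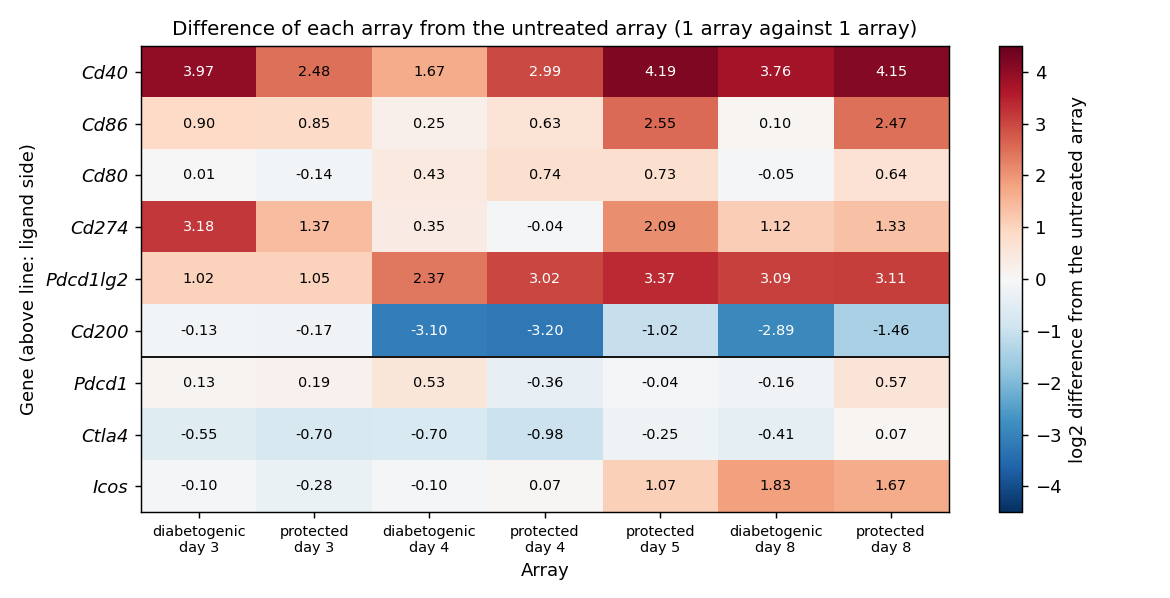
Log2 difference of each injected array from the single untreated array for the 9 tested genes, printed in each cell, with red for higher and blue for lower; all columns share the untreated array. Cd40 and Pdcd1lg2 are positive in every column (Cd40 1.67 to 4.19, Pdcd1lg2 1.02 to 3.37) and Cd200 is negative in every column.

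Against untreated islets, 0 of 9 passed in the diabetogenic arm and 0 of 9 in the protected arm, as for all genes (0% called in each). Unadjusted p was under 0.05 for Cd40 (0.0220) in the diabetogenic arm and for Cd40 (0.0108), Pdcd1lg2 (0.0248) and Cd86 (0.0429) in the protected arm, against 450 and 371 of all genes. Both comparisons share the untreated array. The ligand-side median was 0.98 and 1.41 in the diabetogenic and protected arms, beside -0.10 and -0.04 over all genes, and the receptor median was 0.17 and 0.09.

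Other ligands and receptors of the same families were taken from lists. Of 12 tested further ligands, 7 were positive and 5 negative between the arms, and none passed (median 0.05). The strongest by moderated t were Vtcn1 (0.78 ± 0.34), an inhibitory B7 relative, and Cd276 (0.51 ± 0.40), another B7 relative, on the positive side, and Pvr (-0.76 ± 0.34), ligand of CD226 and TIGIT, and Icosl (-0.66 ± 0.36), the ICOS ligand, on the negative side. Icosl stood at 6.13 in untreated islets, 7.06, 4.23 and 1.40 in the diabetogenic arm and 7.43, 6.98, 8.62 and 7.29 in the protected arm, so its lowest array was the diabetogenic one of day 8. Of 10 further receptors, 4 were positive and 6 negative, none passing (median -0.10). Cd226 (0.40 ± 0.32) and Cd160 (0.27 ± 0.36) led one side, and Tnfrsf4 (-0.63 ± 0.39), the OX40 receptor of activated T cells, and Havcr2 (-0.52 ± 0.33), which encodes TIM-3, the other.

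Genes of signalling below the receptors did not pass either. Below the CD28 family, 2 of 11 were positive and 9 negative (median -0.55, none passing). Pik3cd, the leukocyte PI3-kinase subunit (0.90 ± 0.54), and the adaptor gene Grap2 (0.36 ± 0.32) were the positive ones, and Malt1 (-0.76 ± 0.34) and Bcl10 (-0.76 ± 0.38), partners in NF-κB activation, the lowest by moderated t. Below CD40, 4 of 11 were positive and 7 negative (median -0.13, none passing). Relb (0.90 ± 0.36) and Traf2 (0.25 ± 0.36) led the positive side by moderated t, and Nfkb2 (-0.88 ± 0.32) and Nfkbia (-1.32 ± 0.77) the negative side. On day 4 Relb stood at 9.62 in the diabetogenic and 1.16 in the protected arm, and its partner Nfkb2 at 1.48 and 3.35.

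For the 4 listed genes that reached 8 times the array median on some array, the most similar profiles were sought among 2360 genes of the same kind by Pearson's r over the 8 arrays. They were Themis2, H2-DMa and AU020206 for Cd40 (r = 0.96, 0.95 and 0.94), Parp14, Tap1 and Ifi47 for Cd274 (0.98, 0.93 and 0.91), Vim, Slc2a1 and Lgals1 for Pdcd1lg2 (0.98, 0.97 and 0.97), and Golga7, Ngdn and Gpc4 for Cd200 (0.998, 0.99 and 0.99). All share the arrays and their signal differences, and no p is attached. Picking the highest of 2360 values over 8 arrays also favours a large r by itself.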

How the data were processed

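RNA of laser-captured islets was measured on 8 Affymetrix arrays, each from 5 pooled mice per the submitters' design text. The authors deposited linear probe set intensities; for their summarisation and scaling, no step is given in the sources used here. Depth has no counterpart on arrays, and their number limits precision.

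Intensities were analysed as log2(intensity + 2.155), the median of the arrays' 25th percentiles, with no further scaling because array medians differed by at most 0.21 on that scale. Of the probe sets, 34958 carry 1 symbol in the 2016 platform annotation, 932 several and 9211 none; 64 control probe sets were left out. Tested probe sets reached the array median on at least 2 arrays, and a gene was represented by its probe set of highest mean log2 value, giving 16396 genes. The arms were compared over days 3, 4 and 8 with day as a block, and each arm with untreated islets (1 model over 8 arrays), using limma 3.58.1 (lmFit, eBayes with trend) in R 4.3.3 and Benjamini-Hochberg adjustment over all genes at 0.05. In the matched-day fit a gene's own spread has 2 residual degrees of freedom against 29.99 from the trend, so SEs, intervals and p-values rest mostly on genes of like level. Different days stand in for replicates, p-values measure only the spread between these arrays, and the single untreated array is assumed to vary like them. The fit was tested on simulated data. The members and lists were chosen with earlier results of these data known. Named genes are all members, and from each pathway list those that passed and the 2 largest moderated t values per direction between the arms; marker genes and exceptions are examples chosen after their values were seen. Alternatives covered pseudocount, scaling, filter, probe set choice, prior, block and each array or day left out. Promoter windows come from RefSeq (GRCm38.p6).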

Additional observations from a re-analysis of the deposited data

Results flagged for a closer look

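In the protected arm, 2 of the 9 tested genes had a day 3 array set apart from the other 3, with a gap to the nearest of them that made up most of the arm's range on the log2 scale. For Pdcd1lg2 the gap was 0.848 of the range, with 7.62 on day 3 against 36.1 to 46.8 later. For Cd80 it was 0.892, with 1.64 on day 3 against 4.36 to 4.80. Among groups of 4, chance sets about 1 in 20 apart in this way, the days are not replicates, and the day 3 array also lies on the other side of the split in spiked controls.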

How the results depend on the processing

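Of the 27 differences (9 genes, 3 comparisons), 16 kept their sign under all alternatives run, among them those of Cd40, Pdcd1lg2, Cd274, Cd86 and Cd200 against untreated islets in both arms, and of Cd86 and Cd274 between the arms. Cd274, Pdcd1lg2 and Cd200 have 1 probe set each and Cd86 has 1 that passed the filter. For these genes the mean of probe sets could not change the value. The number of listed genes passing was 0 under every alternative in all 3 comparisons, every probe set tested as its own row included, and the lowest adjusted p was 0.0995. Without day as a block, a replicate block that pairs the arms, 0 listed genes passed and 0 of all genes, against 18 with it. Over all genes the count between the arms was 8 with 4 times the pseudocount, 1 with quantile normalization or with the mean of probe sets, 10 without the filter, 11 without the variance trend, 12 over every probe set, and 33 to 69 with a day pair left out.

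Between the arms, signs turned for 7 of the 9 genes, all but Cd86 and Cd274. With a pseudocount of 0.53875 Ctla4 was 0.015; with median centring Pdcd1 was -0.0124; with quantile normalization Cd40 was 0.25 and Pdcd1lg2 0.20; with cyclic loess Cd40 was 0.62, Pdcd1lg2 0.30 and Pdcd1 -0.0834; with the mean of probe sets Cd80 was 0.16 and Icos -0.17. Leaving out a day pair gave ranges of -0.85 to 0.55 for Cd40, -0.40 to 0.42 for Pdcd1, -0.69 to 0.0709 for Cd200, -0.16 to 0.22 for Ctla4 and -0.00206 to 0.17 for Icos; without the day 8 pair Cd40 was 0.09. Against untreated islets, leaving out an array gave -0.0159 to 0.22 for Cd80, -0.0151 to 0.33 for Pdcd1 and -0.10 to 0.86 for Icos in the diabetogenic arm, and -0.0688 to 0.24 for Pdcd1 in the protected arm. On single days, Cd40 between the arms on day 4 was 0.22 with cyclic loess and 0.95 by its dimmest probe set, which gave -0.32 for diabetogenic day 8 against untreated; an Icos probe set not used in the tests gave -0.20 there. The cause was not tested. Values near the array median have little signal over background, which limits Cd80, Pdcd1, Ctla4 and Cd28.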

Other observations

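From the pathway lists, 3 genes chosen for their profiles, with values in view, had their highest value on an array of day 8. Those arrays lie on the other side of the split in spiked controls from the untreated and day 3 arrays. Tnfrsf4 stood at 3.05 in untreated islets, 6.09, 2.19 and 29.6 in the diabetogenic arm (days 3, 4 and 8) and 5.77, 9.24, 33.7 and 44.4 in the protected arm (days 3, 4, 5 and 8) (1 ± 1.12 and 1.92 ± 1.08 against untreated, limma adjusted p = 0.907 and 1). Traf1, an adaptor of TNF family receptors that NF-κB induces, stood at 1.15 in untreated islets, 8.53, 12.9 and 36.5 in the diabetogenic arm and 5.89, 13.9, 27.2 and 52.1 in the protected arm, with every injected array above the untreated one (2.48 ± 1.05 and 2.69 ± 1.02, adjusted p = 0.894 and 1). Vsir, which encodes the inhibitory B7 relative VISTA, stood at 2.13 in untreated islets, 3.63, 1.59 and 35.6 in the diabetogenic arm and 4.82, 2.58, 21.6 and 11.9 in the protected arm. The arms overlapped (0.27 ± 0.38, adjusted p = 0.853).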
